A study of Mus musculus with 12 samples.

Results

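The Sox2 control region viewpoint is a single DpnII fragment on mouse chromosome 3, and its local pairs are the pairs of other fragments that were read together with it and that both lie within 1 Mb of the capture oligonucleotide. Members were chosen by position only: both fragment midpoints had to lie between 33745994 and 35745994 on chromosome 3 of mm10. By this rule, 5094 distinct fragment pairs with 11952 counts were kept in naive cells and 4536 pairs with 9250 counts in primed cells. The 2 states together held 8779 distinct local pairs, of which 851 were seen in both, out of 14962 pairs of this viewpoint and 151347 pairs of all 23 viewpoints. The cells were J1 mouse embryonic stem cells, an established line. Naive cells grew on gelatin in serum-free N2B27 medium with 2i, a pair of kinase inhibitors, and LIF. Primed cells had spent 7 days on Geltrex in the same base medium without 2i and LIF but with Fgf2, Activin A and Knockout Serum Replacement. Each state had 3 biological replicates captured with the oligonucleotides of pool 1, but the counts came as 1 table per state with no replicate, so that no spread between replicates could be given and no test across samples was made.

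Sox2 is a transcription factor of the pluripotency network, and its level is kept tightly controlled in embryonic stem cells. Most of its transcription there depends on a cluster of enhancers far downstream of the gene, known as the Sox2 control region, which is classed as a super-enhancer because of its dense binding by pluripotency factors and co-activators. Tri-C is a chromosome conformation capture method that reads, on a single ligated molecule, the viewpoint and at least 2 further fragments, called reporters. A count of a fragment pair is therefore a three-way contact: the viewpoint, the first reporter and the second reporter.

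The sequence shown first is the one that defines the viewpoint, since every count below is a molecule held by it. The oligonucleotide lies on the forward strand at chr3:34745994-34746093 of mm10, 96.0 kb downstream of the start of Sox2. No RefSeq gene overlapped it, and the nearest ones were the long noncoding RNA genes Gm3143, which ends at 34716662, and Gm38509, which starts at 34772075. On chromosome 3 of NCBIM37, an older build, it had 1 exact forward match at chr3:34644916-34645015 and 0 reverse matches. The bases that follow it there are given with each DpnII site, GATC, in capitals.
Sox2-SE oligonucleotide: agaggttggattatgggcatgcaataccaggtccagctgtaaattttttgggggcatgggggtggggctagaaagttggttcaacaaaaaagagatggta
NCBIM37 chr3:34645016-34645100: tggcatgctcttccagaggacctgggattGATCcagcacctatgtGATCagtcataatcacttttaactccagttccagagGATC
In NCBIM37 the viewpoint fragment spans 142 bases between its sites and is followed by fragments of 12 and 32 bases. The distances from the oligonucleotide to the second and the third site match the ends of the 32-base fragment in the mm10 tables. In the older build, the segment that the study painted as the Sox2 control region for microscopy starts further downstream than the oligonucleotide, so the viewpoint lies beside that segment on the side of Sox2 and not inside it.

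Three-way counts were heaviest directly beside the viewpoint. The 32-base fragment at 34746143 to 34746174 and the 713-base fragment that adjoins it, at 34746179 to 34746891, formed the most frequent pair in both states, at 2855 naive and 2191 primed counts. This 1 pair made up 23.9% of the local counts in naive cells and 23.7% in primed cells. Both reporters lay in the 10 kb bin of the viewpoint (34740001 to 34750000) in 32.0% of naive and 31.8% of primed local counts. These counts describe the linear neighbourhood of the viewpoint and were set aside. Counts with only 1 reporter in that bin, 27.3% of naive and 23.6% of primed local counts, were set aside too. Their other reporter can lie further away, and ratios with them kept are given for Sox2 below. The shares below refer to the local counts with no reporter in that bin, 4861 in naive and 4125 in primed cells, unless another total is named. Of the pairs behind them, 78.0% in naive and 78.8% in primed cells were seen once. Intervals are exact 95% intervals and cover counting error only. A molecule with more than 2 reporters adds more than 1 pair, and amplification copies are not independent, so the true uncertainty is larger. A count touches each bin or region that holds either of its reporters, so shares of bins and regions overlap and do not sum to 100%. They are relative to the same total in a state, and a difference in 1 place can be accompanied by opposite ones elsewhere.

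Sox2 was contacted more in naive cells, both in the bin of its start and in the bin of the gene. RefSeq places its start at 34649995, so that only the first 6 bases of the gene fall in the bin 34640001 to 34650000 and the rest of it, up to 34652461, in the next bin. The first of these bins, called the promoter bin although nearly all of it lies before the promoter, was touched by 284 naive counts (5.84%, interval 5.20% to 6.54%) and 71 primed counts (1.72%, interval 1.35% to 2.17%), a naive over primed ratio of 3.39 (interval 2.61 to 4.47). The gene bin was touched by 240 naive and 22 primed counts, which is 4.94% against 0.533% and a ratio of 9.26 (5.97 to 15.1). With the counts kept whose other reporter lay in the viewpoint bin, the gene bin had 401 naive and 56 primed counts and a ratio of 5.54 (4.18 to 7.47), and the bin before it 3.25 (2.61 to 4.08). The naive share was the larger in both bins, and in neither did the intervals of the states overlap. The bins on both sides followed. At 34660001 to 34670000 the ratio was 3.43 (307 against 76 counts), at 34630001 to 34640000 it was 2.36 (156 against 56 counts), and at 34620001 to 34630000 it was 1.20 (41 against 29 counts) with an interval from 0.728 to 2.00. Among all 139 bins with at least 20 counts in the 2 states together, the naive share was at least 2-fold the primed share in 17, which is 12.2%, and the primed share at least 2-fold the naive in 61, which is 43.9%. The intervals excluded 1 in all 17 of the former and in 60 of the latter. The Sox2 bins are read against this background.

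**Figure D1:**
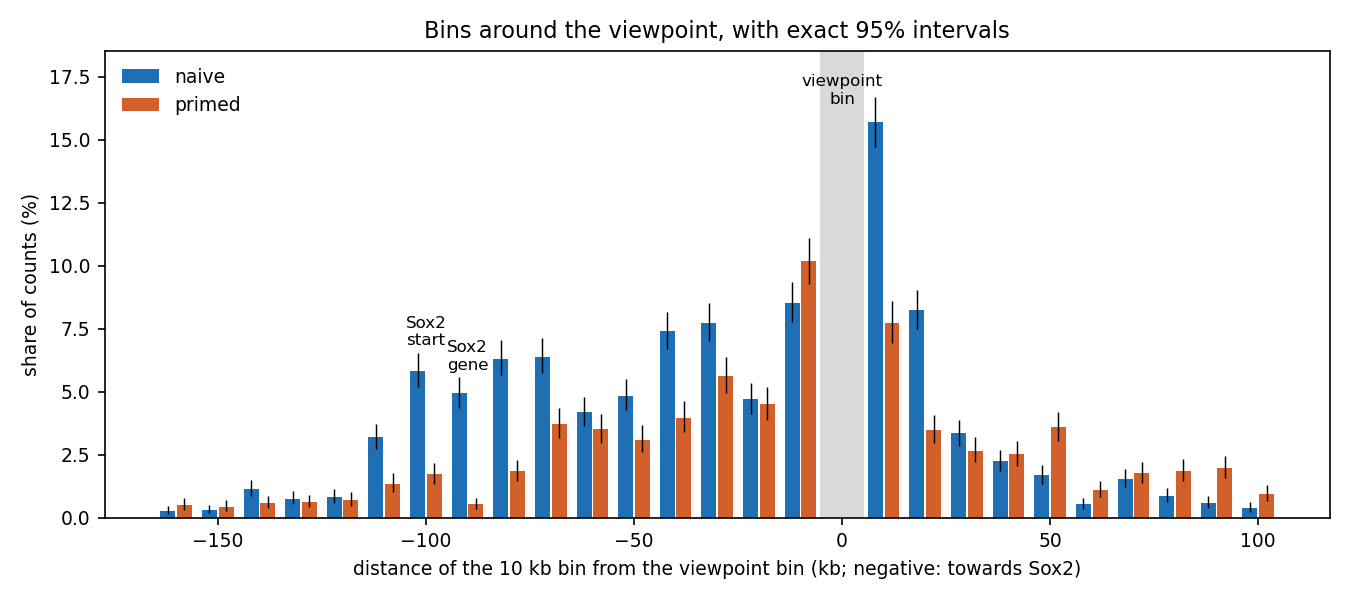
Share of counts (%) touching each 10 kb bin from 160 kb on the Sox2 side to 100 kb on the other side of the viewpoint bin (grey), naive in blue and primed in orange, with exact 95% intervals. The Sox2 gene bin held 4.94% of naive and 0.533% of primed counts, whereas the bin just before the viewpoint held 8.54% and 10.2%.

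The fragments of the gene were nearly free of primed counts. DpnII cuts Sox2 and its start into 6 fragments, and the promoter is shown because it has no site for this enzyme and is therefore carried whole by the first of them. The 250 bases before the start (RefSeq, GRCm38.p6, forward strand) are given with an octamer-like ATGCAAA and an ATTGG, the reverse complement of CCAAT, in capitals.
Sox2 promoter chr3:34649745-34649994: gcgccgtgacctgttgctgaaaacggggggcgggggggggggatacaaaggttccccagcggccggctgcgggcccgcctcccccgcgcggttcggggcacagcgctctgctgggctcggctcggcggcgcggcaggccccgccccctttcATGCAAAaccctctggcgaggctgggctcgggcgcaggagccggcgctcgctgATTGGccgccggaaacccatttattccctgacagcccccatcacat
Searched on both strands, ATGCAAA was present in 4.12% and ATTGG in 33.8% of all 32851 RefSeq windows of this kind, and a GATC in 41.9% of them. These motifs were chosen after the sequence was read, do not overlap each other, and are a description of the letters only.

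The fragment with the promoter, 34648733 to 34650279, took part in 13 naive counts and 0 primed counts. With a floor of 3 counts for the primed table, its naive share was at least 3.68-fold higher, and the counting interval of the ratio began lower, at 2.59. The next 5 fragments, from 34650284 to 34652544, took part in 10, 18, 29, 30 and 27 naive counts and in 0, 1, 1, 2 and 0 primed counts. Every one of the 6 was higher in naive cells. Together, 105 naive and 3 primed counts touched them, a ratio of 29.7 with a wide interval from 9.89 to 146. Where the counts with the second reporter in the viewpoint bin were kept, 163 naive and 15 primed counts touched the gene, and the ratio was 8.41 (4.95 to 15.4). Contacts of the Sox2 gene in primed cells were thus mostly pairs whose other reporter lay beside the viewpoint, 12 of 15, against 58 of 163 in naive cells.

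Fragments with at most 2 primed counts, single or side by side, occurred in several places around Sox2, and the gene lay within one such run. From 34648733 to 34655856, that is from 1.26 kb before Sox2 to 3.40 kb after it, 10 consecutive fragments had at most 2 primed counts each, 7 of them 0, and 3 primed counts touched the whole run against 150 naive counts. The 5 fragments on each side of the run were touched by 35 primed and 147 naive counts. This run was delimited after its counts were seen, so its low primed count is a description. Over the 40 kb from 34630001 to 34670000, called the Sox2 block here, 25 of the 73 fragments seen had at most 2 primed counts and 12 had 0, and 67 had the larger share in naive cells. Of all 2911 fragments seen in the window outside the viewpoint bin, 1128 (38.7%) had the larger share in naive cells. The counts of the 73 fragments of the Sox2 block ranged up to 47 with a median of 17.0 in naive cells, and up to 12 with a median of 4.00 in primed cells. The most frequent fragment of the promoter bin, 134 bases at 34644598 to 34644731, had 47 naive and 6 primed counts. The others among its 5 most frequent fragments, between 34642046 and 34644593, had 25 to 35 naive and 3 to 9 primed counts. No single fragment carried the difference, and without the most frequent one the ratio of the promoter bin was 3.12.

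**Figure D2:**
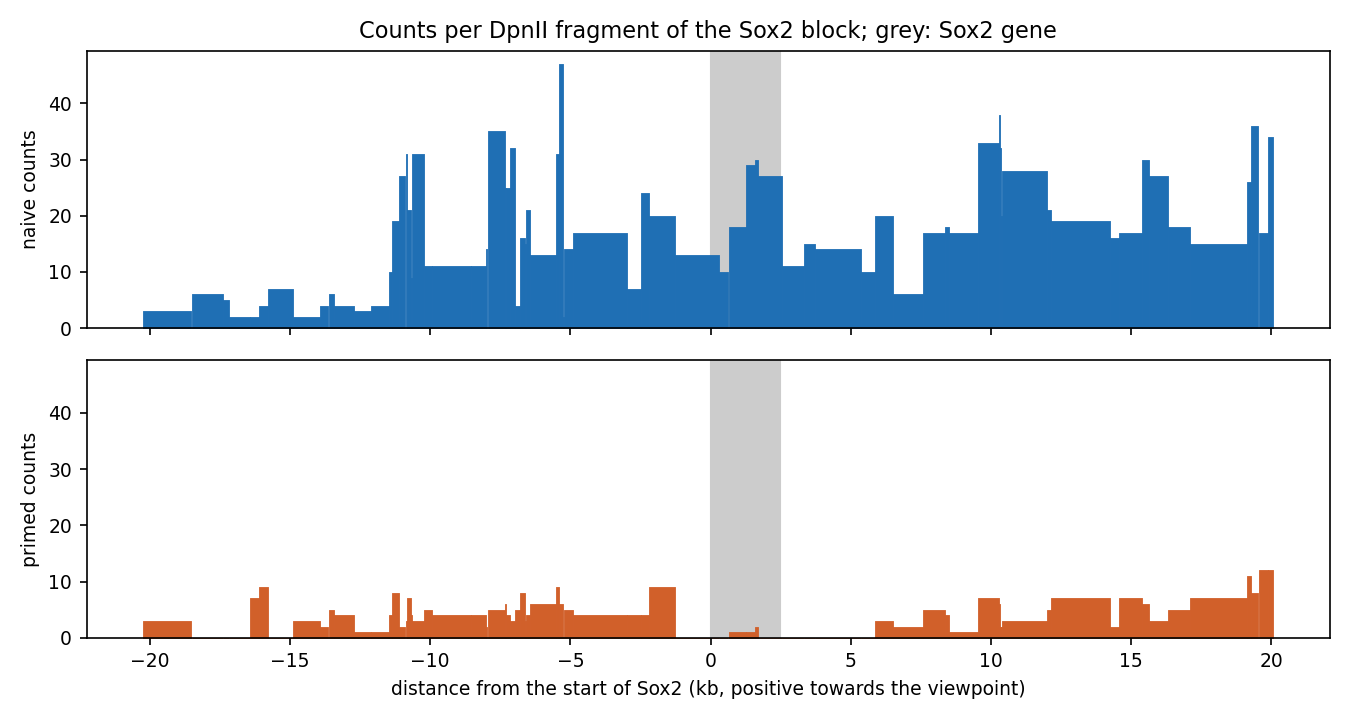
Counts of each DpnII fragment of the Sox2 block (height, with the width of the bar the length of the fragment) against distance from the start of Sox2 in kb, naive above and primed below, with the gene in grey. Naive counts run through the gene, while the primed counts fall to between 0 and 2 per fragment over it and rise again on both sides.

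A three-way read also shows what else was at the viewpoint when Sox2 was there. One reporter lay in the promoter bin and the other downstream of the viewpoint in 86 naive and 23 primed counts, a ratio of 3.17 (1.98 to 5.27). The 20 kb from 34750001 to 34770000, named the near downstream zone here, lie directly past the viewpoint and held 43 of these 86 naive and 5 of these 23 primed counts. This zone and the Sox2 block were marked out after the profile was seen, so their values are descriptive. The Sox2 block and the near downstream zone were joined in 140 naive and 12 primed counts, 2.88% against 0.291% of the counts, a ratio of 9.90 (5.49 to 19.6). These were 122 distinct pairs in naive and 11 in primed cells, and with each distinct pair counted once the ratio was 9.97. With the regions 30 to 190 kb and 200 to 960 kb downstream, the Sox2 block was joined in 70 against 16 counts (ratio 3.71, 2.13 to 6.85) and 64 against 28 counts (ratio 1.94, 1.23 to 3.14). With the bins 980 and 990 kb downstream it was joined in 7 naive and 0 primed counts. By comparison, both reporters lay within the Sox2 block in 371 naive and 75 primed counts (ratio 4.20, 3.27 to 5.45).

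The partners of the Sox2 block can be counted without reference to how often it was contacted at all. Among counts that joined the block to somewhere else outside the viewpoint bin, 535 in naive and 140 in primed cells, the near downstream zone was the partner in 26.2% (22.5% to 30.1%) and 8.57% (4.51% to 14.5%). The 70 kb between Sox2 and the viewpoint were the partner in 32.9% and 32.1%, values whose intervals overlapped almost fully. The region 200 to 960 kb downstream was the partner in 64 of 535 naive and 28 of 140 primed counts, and the region 660 to 200 kb upstream in 4.30% and 13.6%. For the near downstream zone and for the upstream region the intervals of the states did not overlap, in opposite directions. Other anchors showed shifts as well. For the 70 kb between Sox2 and the viewpoint, the near downstream zone was the partner in 30.6% of naive and 14.2% of primed counts and the upstream region in 4.08% and 12.5%. For the region around Fxr1, 33990001 to 34080000, the zone was the partner in 48 of 160 naive and 4 of 30 primed counts (ratio 2.25, 0.824 to 8.59), and the upstream region in 12 of 160 (3.94% to 12.7%) and 0 of 30 (0% to 11.6%), with intervals that overlapped.

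The reverse view, from the near downstream zone to the Sox2 side, was counted bin by bin. Of the counts that joined this zone to a fragment upstream of the viewpoint, 27.5% (140 of 510; 23.6% to 31.5%) in naive and 7.84% (12 of 153; 4.12% to 13.3%) in primed cells ended in the Sox2 block. The promoter bin had 43 such counts in naive and 5 in primed cells, the gene bin 49 and 2, and the bin after it 40 and 4. The bin nearest to the viewpoint on that side, 34730001 to 34740000, had 52 and 26. Further away than Sox2, at 34600001 to 34610000, which holds the start of the noncoding gene Gm42205 within Sox2ot, 21 naive and 4 primed counts were joined to the zone. Of these, 20 naive counts and 0 primed counts were with 34760001 to 34770000, and they came from only 2 distinct fragment pairs. Over the whole bin, 56 naive and 24 primed counts gave a ratio of 1.98 (1.21 to 3.34), which was 1.37 (0.744 to 2.59) with each distinct pair counted once.

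**Figure D3:**
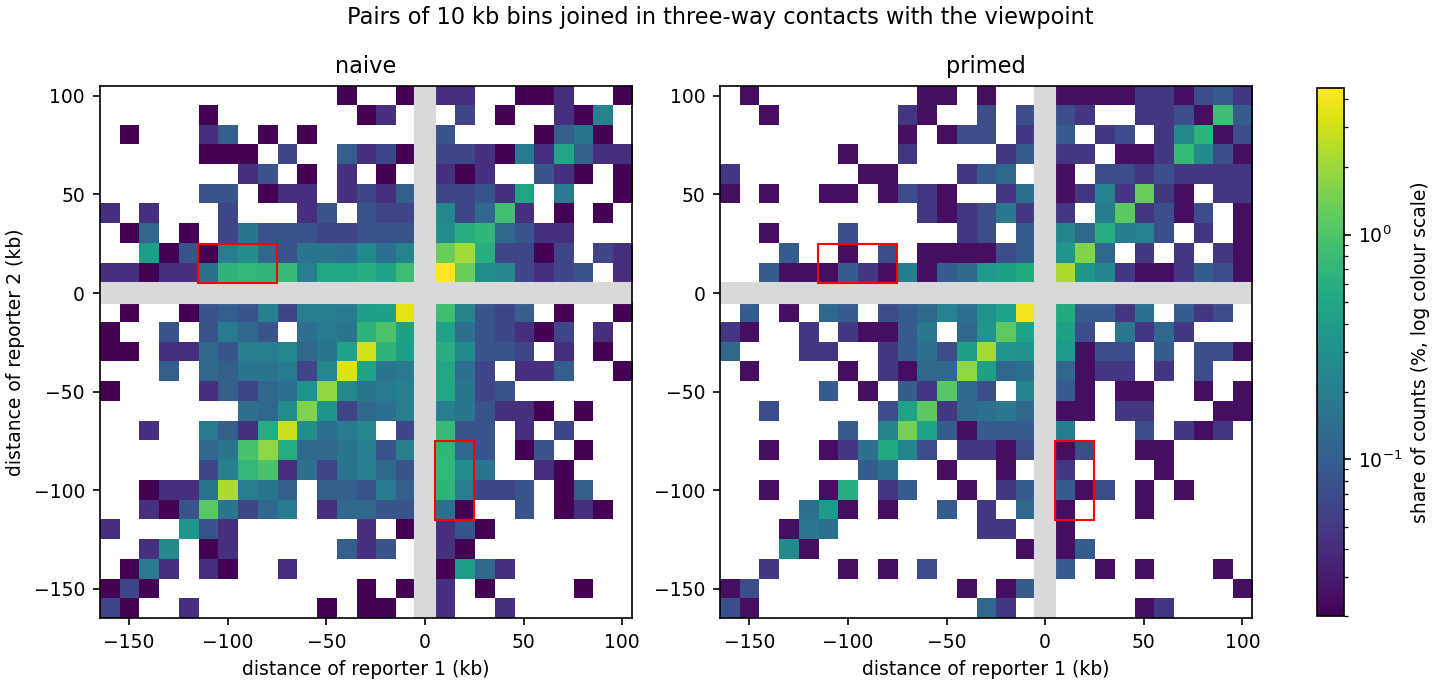
Share of counts (%, log colour scale) for each pair of 10 kb bins from 160 kb on the Sox2 side to 100 kb on the other side of the viewpoint, naive left and primed right, with distances in kb, the viewpoint bin in grey and bin pairs with no count in white. The red boxes mark the Sox2 block against the near downstream zone, which held 140 counts in naive and 12 in primed cells.

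Single bin pairs were thinly covered, and 160 of the 2012 pairs of bins with any count had at least 10 counts in the 2 states together. The naive share was at least 2-fold the primed in 51 of them (31.9%) and the primed at least 2-fold the naive in 50 (31.2%), with intervals that excluded 1 in 38 and 35 of these. With each distinct pair counted once, 35 and 15 of 103 bin pairs passed the same fold, and without adjoining pairs 40 and 15 of 85. Among the 58 pairs with at least 20 counts, the highest 3 ratios all joined the Sox2 side to the near downstream zone. Besides the pair with the Gm42205 bin, whose naive share was at least 5.66-fold higher against the floor of 3 counts with an interval that began at 4.19, these were 34660001 to 34670000 with 34750001 to 34760000 (34 naive and 1 primed counts, from 29 and 1 distinct pairs; ratio 28.9, 4.84 to 1173) and the Sox2 gene bin with 34750001 to 34760000 (35 and 2 counts, from 32 and 2 distinct pairs; ratio 14.9, 3.82 to 127). The lowest was the bin before the viewpoint, 34730001 to 34740000, with 35110001 to 35120000 (1 and 19 counts, from 1 and 6 distinct pairs; ratio 0.0447, 0.00107 to 0.281). The other two lowest ratios were pairs within 1 bin, at 35450001 to 35460000 (4 and 17 counts) and at 34820001 to 34830000 (8 and 27 counts).

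The near downstream zone itself was contacted more in naive cells. Its first bin was touched by 762 naive and 319 primed counts (15.7% and 7.73%; ratio 2.03, 1.78 to 2.32) and its second by 401 and 144 (8.25% and 3.49%; ratio 2.36, 1.95 to 2.88). Of the 36 fragments seen in it, 33 had the larger share in naive cells, beside 38.7% of all fragments of the window. The zone was marked out by its high naive share, so this is a description. On the other side of the viewpoint the bin at the same distance, 34730001 to 34740000, had 415 naive and 420 primed counts, with a ratio of 0.838 (0.730 to 0.963). Between Sox2 and the viewpoint, contacts over the long noncoding gene Gm3143, at 34699640 to 34716662, made up 12.9% of naive and 7.61% of primed counts (ratio 1.69, 1.48 to 1.95). Over wider classes of distance downstream, the ratio was 2.07 up to 20 kb, 1.10 at 20 to 50 kb, 0.512 at 50 to 100 kb, 0.732 at 100 to 200 kb, 0.512 at 200 to 500 kb and 0.485 at 500 to 1000 kb. Upstream, the same classes gave 0.869, 1.51, 2.16, 1.71, 0.421 and 1.31, with the highest ratio at the distance of Sox2.

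Sox2ot, the long noncoding gene in which Sox2 is embedded, spans 34560381 to 34677993 and was touched by 27.4% of naive and 11.3% of primed counts, which includes the Sox2 block. Its own start bin, 34560001 to 34570000, had 13 naive and 7 primed counts (ratio 1.58, 0.584 to 4.66), which at this depth does not separate the states. Of the 5 protein-coding genes of the window and Sox2ot, 4 had at least 20 counts in the bin of their start. For 2 of these the naive share was at least 2-fold the primed, and for 0 the reverse held, beside 12.2% and 43.9% of all bins tested. Of the 13 start bins of other long noncoding RNA genes with enough counts, 1 had an at least 2-fold larger naive and 3 an at least 2-fold larger primed share. The 2 were Sox2 and Fxr1, an RNA-binding protein of the fragile X family, with 22 naive and 5 primed counts (ratio 3.73, 1.38 to 12.6) at a distance of 726 kb. Ccdc39, which has a role in the assembly of motile cilia, had 12 and 20 counts at its start (ratio 0.509, 0.227 to 1.09). The start bins of Ttc14 and Dnajc19, a mitochondrial co-chaperone, stayed under the minimum with 15 and 19 counts.

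Fxr1 was part of a wider island of naive contacts, labelled the Fxr1-Dnajc19 block in the plot of regions. From 33990001 to 34080000, over Fxr1, most of Dnajc19 and the noncoding Gm9791 and Gm46798, 311 naive counts (6.40%) stood against 57 primed counts (1.38%), a ratio of 4.63 (3.48 to 6.25). In 8 of its 9 bins the naive share was at least 2-fold the primed, which makes up 8 of the 17 such bins (12.2%) of the window. The exception, at 34060001 to 34070000, had 16 and 11 counts. This island was marked out after the profile was seen, by these same ratios. The naming rule took 3 of its bins, 34050001 to 34060000 (46 and 4 counts; ratio 9.76, 3.56 to 37.3), 34000001 to 34010000 (84 and 11; 6.48, 3.44 to 13.5) and 34030001 to 34040000 (48 and 11; 3.70, 1.90 to 7.91). The other two of the 5 highest bins were the Sox2 gene bin and the bin after it.

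The island was joined to the near downstream zone and to Sox2 in three-way counts, most of them in naive cells. Counts with 1 reporter in it and the other in the near downstream zone numbered 48 in naive and 4 in primed cells (ratio 10.2, 3.73 to 38.9), and counts with the other in the Sox2 block 19 and 3 (ratio 5.37, 1.58 to 28.4). Set against all partners of the island outside the viewpoint bin, the Sox2 block made up 19 of 160 naive and 3 of 30 primed counts (ratio 1.19, 0.350 to 6.27). The 70 kb between Sox2 and the viewpoint were joined to the island in 38 and 7 counts, and the region 660 to 200 kb upstream in 12 and 0. With the other reporter in the viewpoint bin there were 154 and 21. Both reporters lay within the island in 151 and 27 counts. With the distant downstream region, 11 and 12 counts were seen, a ratio of 0.778 with an interval from 0.311 to 1.93. The remaining bins with an at least 2-fold larger naive share were few. The bin 33800001 to 33810000 over Ttc14 had 18 and 3 counts, and the bins 35720001 to 35730000 and 35730001 to 35740000 at the downstream end of the window had 35 against 4 and 28 against 10. In all, 16 of the 17 bins lay in the Sox2 block, the near downstream zone, the Fxr1 island or this downstream end, and the one other lay over Ttc14. All of these regions, the downstream end included, were marked out after the profile was seen, so this tally follows from how they were drawn.

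**Figure D4:**
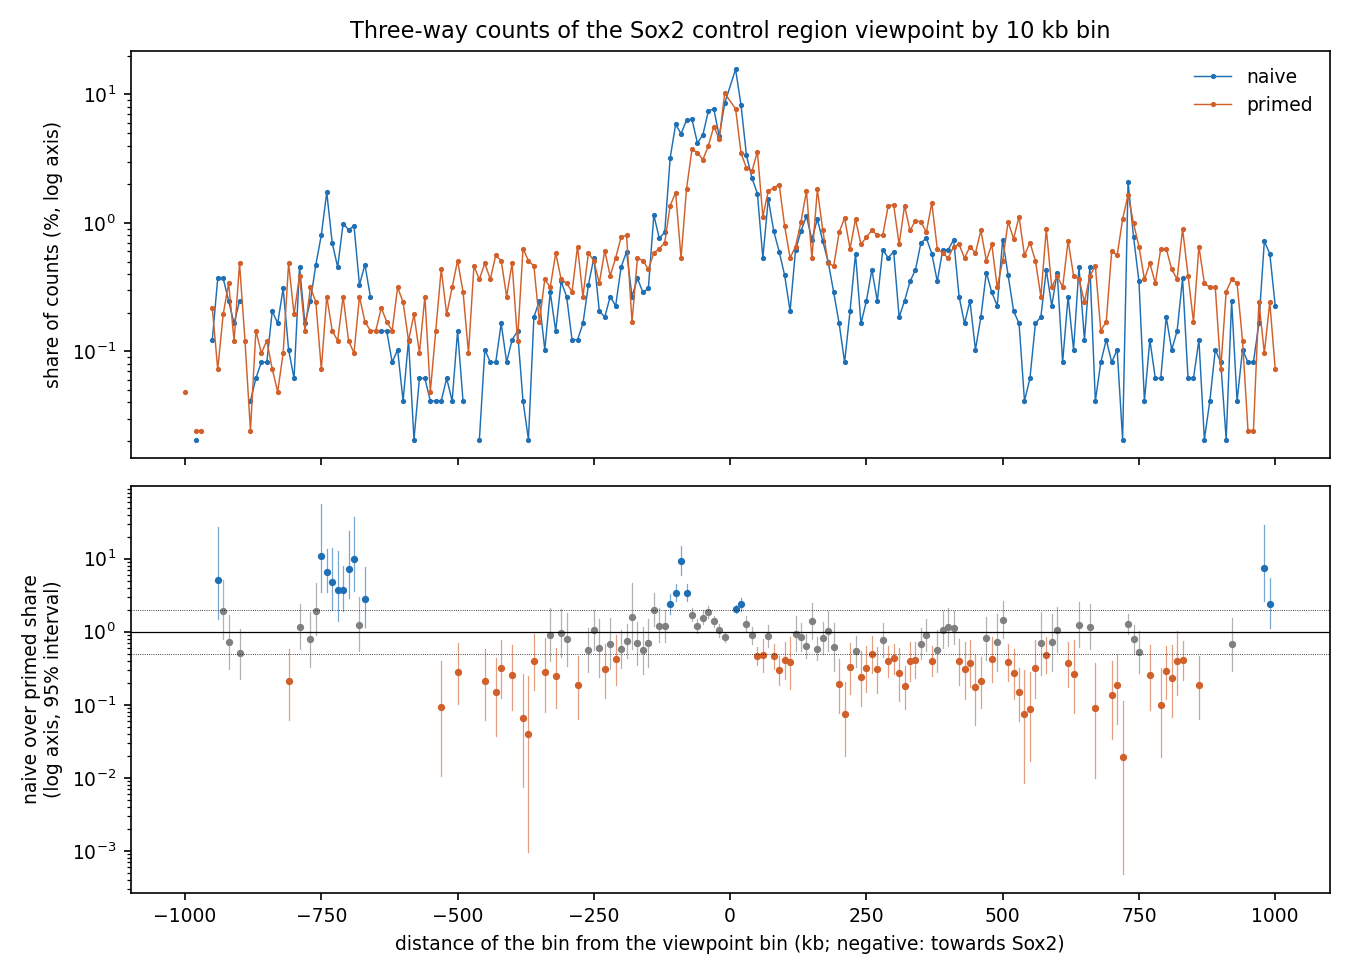
Upper panel, share of counts (%, log axis) per 10 kb bin against distance from the viewpoint bin in kb, naive in blue and primed in orange, with bins at 0 counts left blank. Lower panel, naive over primed ratio (log axis) with its 95% interval for the 139 bins with at least 20 counts, coloured where the ratio is at least 2 or at most 0.5. Ratios of at least 2 lie at the Sox2 block, directly past the viewpoint, at the Fxr1 island, over Ttc14 and at the downstream end, and ratios of at most 0.5 spread over the regions in between.

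In primed cells a larger share of the contacts fell in long stretches on both sides, away from Sox2. From 34940001 to 35710000, which overlaps 0 protein-coding and 5 long noncoding RNA genes of RefSeq, 909 naive counts (18.7%) stood against 1633 primed counts (39.6%), a naive over primed ratio of 0.472 (0.435 to 0.513). A bin of this stretch had a median of 9.00 counts in naive and 25.0 in primed cells. Of its 60 bins with at least 20 counts, 52 had a ratio under 1, the primed share was at least 2-fold the naive in 40, and the naive share was at least 2-fold the primed in 0, beside 61 (43.9%) and 17 (12.2%) of all 139 bins tested, which include these and had a median ratio of 0.606. On the Sox2 side, from 34080001 to 34550000, where 1 protein-coding gene, Dnajc19, reaches into the first bin, 288 naive and 566 primed counts gave a ratio of 0.432 (0.373 to 0.498). Of 22 bins there with enough counts, 14 had an at least 2-fold larger primed share, beside the same 61 of 139. The stretches were delimited after the profile was seen.

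The 5 lowest ratios among the 56 bins with at least 50 counts all lay downstream, between 34830001 and 35280000. The lowest was 35270001 to 35280000, which holds the start of the noncoding gene 1700017M07Rik, with 8 naive and 46 primed counts (ratio 0.148, 0.0602 to 0.316). It was followed by 35060001 to 35070000 with 12 and 56 counts (0.182, 0.0887 to 0.343) and by 34830001 to 34840000 in Gm21388 with 29 and 82 (0.300, 0.189 to 0.463). The remaining ones, 35250001 to 35260000 and 35030001 to 35040000, had 19 against 42 and 26 against 56 counts. One bin in this stretch was high in both states. The bin 35470001 to 35480000 had 101 naive and 68 primed counts, of which 96 and 63 touched a run of short fragments that repeat every 42 bases, and whether reads of these fragments can be placed uniquely was not tested. Without these fragments the ratio of the whole stretch was 0.441.

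Across the window, the share of counts with a reporter over 200 kb away was 33.6% (32.3% to 35.0%) in naive and 55.0% (53.4% to 56.5%) in primed cells, a ratio of 0.611 (0.573 to 0.652). Both reporters were that far away in 19.6% and 35.9%. Reporters 50 to 100 kb upstream, the distance at which Sox2 lies, were present in 22.9% of naive and 10.6% of primed counts (ratio 2.16, 1.93 to 2.42). At the same distance downstream they were present in 4.01% and 7.83% (ratio 0.512, 0.427 to 0.614). The side of the contacts shifted too. Both reporters lay upstream, towards Sox2, in 47.6% of naive and 34.6% of primed counts, and both downstream in 31.4% and 47.1%. The viewpoint lay between the reporters in 21.0% and 18.3%, a smaller difference with a ratio of 1.15 (1.04 to 1.26). With 1 more bin left out on each side of the viewpoint bin this ratio was 1.03 (0.911 to 1.16), which does not separate the states. By contrast, the 2 reporters of a count lay in the same bin in 48.9% of naive and 49.0% of primed counts (ratio 0.997, 0.939 to 1.06), and 37.9% and 38.4% of counts were of adjoining fragments (ratio 0.986, 0.921 to 1.05). Counting each distinct pair once, these ratios were 0.900 (0.826 to 0.980) and 0.798 (0.718 to 0.886).

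**Figure D5:**
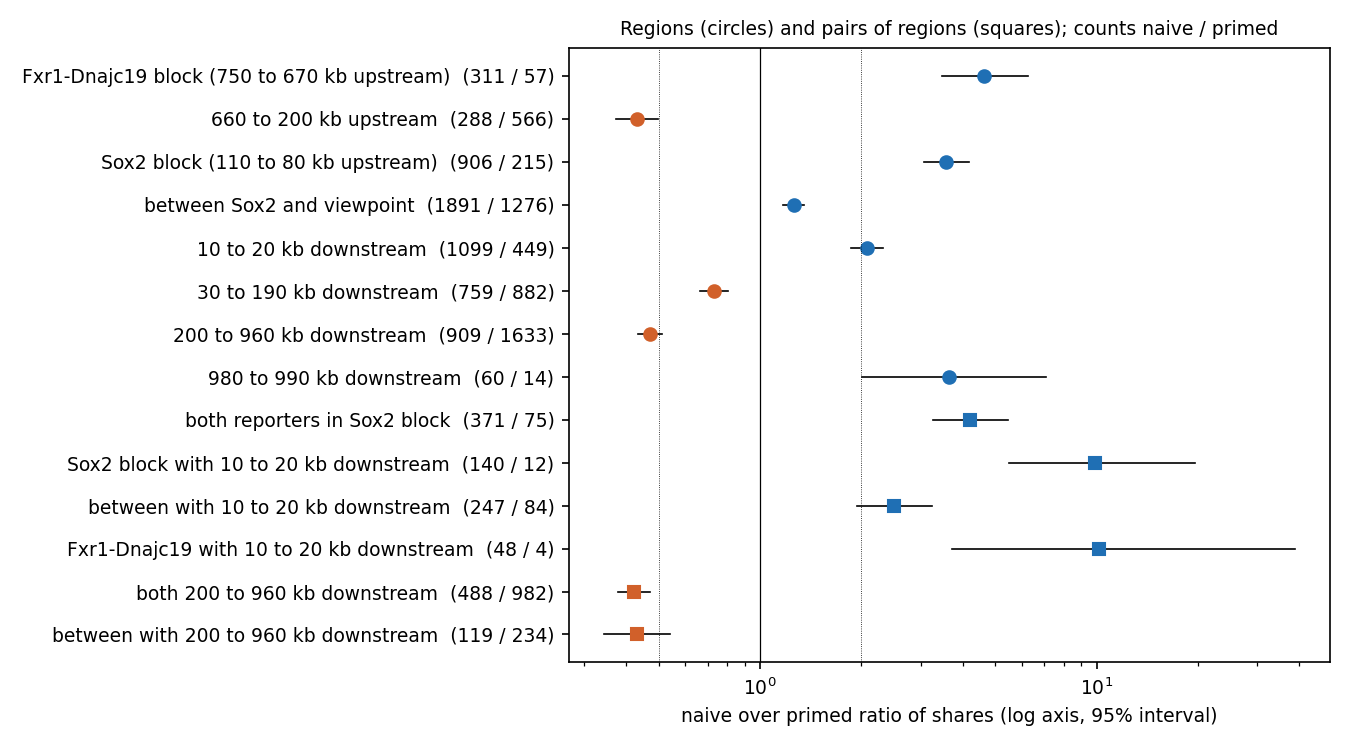
Naive over primed ratio of shares (log axis) with 95% intervals for regions of the window (circles) and for pairs of regions (squares), with naive and primed counts in the labels. The pairs that join the near downstream zone to the Sox2 block (140 and 12 counts) and to the Fxr1 island (48 and 4 counts) lie furthest to the right, and the distant stretches lie left of 1.

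Measured over all its counts, the viewpoint kept 77.4% (76.7% to 78.1%) of them within 1 Mb in naive and 70.1% (69.3% to 70.9%) in primed cells, a ratio of 1.10 (1.07 to 1.13). Of the other viewpoints, 10 had 400 or more counts in both states, and their ratio of local shares ran from 0.934 to 1.31 with a median of 1.12, so the Sox2 value lay inside their range. Among these 10, Elovl6-SE1, Klf4-distal-SE, Malt1, Txnip-distal-SE and cMyc were captured separately with the oligonucleotides of pool 2, and the others with pool 1. The ratio of shares with a reporter over 200 kb away ran from 0.594 to 1.06 at the 7 others with at least 1000 counts outside their own viewpoint bin, with a median of 0.803, and its interval was below 1 at 5 of them. The Sox2 viewpoint was the second lowest of the 8. Under that minimum of 1000 counts, Klf4-distal-SE had a lower ratio of 0.521 (0.434 to 0.623), Malt1 had 0.982 and Lefty1-2 had 1.31, so rank and range depend on the minimum. For the bins at the distance of Sox2, the 7 other viewpoints gave 26 bins with at least 20 counts on either side, with ratios between 0.297 and 3.41 and a median of 1.13. Both ends of this range came from pool 2, with 0.297 at Elovl6-SE1 and 3.41 at cMyc. Such bins of pool 1 viewpoints ran from 0.822 at cMyc-2 to 1.70 at Dnmt3a-116kb. The promoter bin, at 3.39, lay just inside the range of both pools together and above that of pool 1. The gene bin, at 9.26, lay above both ranges. Counts with the viewpoint bin were left out throughout. The bins of other viewpoints are no replicates of the Sox2 bins, and this difference was not tested.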

How the data were processed

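J1 cells in the naive and the primed state were fixed, and their chromatin was cut with DpnII, ligated, captured in 2 successive rounds and sequenced in paired ends. Per the study's methods, the authors ran CapCruncher (capture mode, mm10), kept reads that carried at least 2 reporters in cis by scripts of their own, and deposited whole-number counts of fragment pairs in a table for each viewpoint and state. How duplicate reads were treated, the aligner and software versions are not given in the sources used. Tables carry no replicate, so each was taken as a pool of the replicates of its state. The naive table held 15441 and the primed 13190 counts.

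Fragments were placed by midpoint into 10 kb bins on the mm10 grid. A count touched a bin when at least 1 reporter lay in it. Shares have exact Clopper-Pearson 95% intervals, and the interval of a ratio came from splitting the summed counts of both states binomially. Python 3.11.15, numpy 2.4.6, scipy 1.17.1 and matplotlib 3.10.9 were used, and the calculations were tested on simulated data. The simulated counts were independent, so amplification copies and molecules that add several pairs were not covered by that test. Genes and promoters came from RefSeq (GRCm38.p6). NCBIM37 was used for the match of the oligonucleotide, the bases and DpnII sites beside it and its position relative to the segment painted for microscopy, with strands of genes without a promoter entry from GENCODE. The named items were the Sox2 promoter bin with 2 bins on each side, the start bins of protein-coding genes and Sox2ot, the 5 highest and 5 lowest bins with at least 50 counts, the 3 highest and 3 lowest bin pairs with at least 20 counts, and the 5 most frequent fragments of the promoter bin. Members and lists were chosen with earlier results of these data known. Blocks of bins, the gene bin and the run of fragments were chosen after the counts were seen.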

Additional observations from a re-analysis of the deposited data

How the results depend on the processing

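No paired analysis was possible because neither table names a replicate, and leaving out replicates was not run for the same reason. All 67 ratios under other settings kept their side of 1. These settings reuse the same counts, and some are for blocks marked out after the profile was seen, so this is a description. Apart from those blocks, 43 of 73 alternatives stayed within the interval of the main ratio or close to the main number of bins or bin pairs. With both midpoints within 500 kb or 200 kb, the ratio of local shares was 1.18 or 1.35. The Sox2 promoter ratio was 8.36 with 5 kb on each side of the start and 9.26 in the gene bin (an alternative chosen after seeing the data), and between 2.61 and 3.68 otherwise. Joined with the downstream side, it was 16.1, 5.43 and 12.6 with 5 kb on each side, the 5 kb bin of the start and the gene bin, and between 2.53 and 3.25 otherwise. With all local counts, 1 more bin left out on each side, or within 200 kb, both upstream was 1.11, 1.61 and 1.12. Both downstream was 0.890 with all local counts, 0.592 with the wider exclusion and 0.620 without adjoining pairs, also added. The straddling ratio was 1.03 (0.911 to 1.16) with the wider exclusion and 1.46 within 200 kb. The distant ratio was 0.673 with each pair once, 0.570 with all local counts, 0.741 over 100 kb and 0.731 over 500 kb. The numbers of bins and bin pairs tested change with these settings as well. Of 139 bins, 17 had a 2-fold larger naive share, against 26 of 164 at 5 kb and 11 of 91 at 20 kb, and 61 had a larger primed share, against 39 of 118 with each pair once, 37 of 91 at 20 kb, 26 of 76 at 2 times the minimum and 40 of 139 at 3-fold. Of 160 bin pairs, 51 were naive-higher, against 31 of 121 at 20 kb and 19 of 58 at 2 times the minimum, and 50 primed-higher, against 15 of 103 with each pair once, 9 of 58 at 2 times the minimum and 15 of 85 without adjoining pairs. With 96 of the 160 bin pairs above the minimum lying within 1 bin, depth limits what single bin pairs can show.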
